A study of Mus musculus with 6 samples.

Results

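The imprinted genes examined here are 38 mouse genes whose transcripts come from a single parental allele in some or all tissues. They were listed by name, and a gene was measured when an array probe set carried its symbol alone. This held for 30 of the 38 genes, among 17097 genes measured in all, and the brightest probe set over the 6 arrays stood for each gene. Of the 30, 14 are reported as expressed from the paternal allele, 15 from the maternal allele, and *Gnas* is a locus with transcripts of both kinds. *H19*, *Igf2r*, *Peg10*, *Mest*, *Nnat*, *Zrsr1*, *Asb4* and *Inpp5f* had no such probe set and were not analysed here as single genes. The array reads the sum of both alleles, so no allele's share can be taken from these values.

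Each condition had 1 array, hybridized with RNA of E14tg2a mouse embryonic stem cells (ESCs) or of epiblast-like cells (EpiLCs) made from them, and no comparison has replicates. The line carried a doxycycline-inducible *Prdm14* cassette on a piggyBac transposon, from picked colonies, and PRDM14 is a PR-domain protein that acts in naive pluripotency and germ cell precursors. The study asked how PRDM14 turns EpiLCs back toward ESCs, and whether the TET dioxygenases, which oxidize methylated cytosine, take part. Their label puts the ESCs in serum with LIF, without feeders, while the methods also describe a serum-free medium with LIF and inhibitors of GSK3 and MEK as the culture before EpiLC induction, so the medium of the ESC array is not settled. The ESC label names no shRNA. EpiLCs (d2) carried a scramble shRNA and had spent 2 days on fibronectin with activin A and bFGF. EpiLCs (d4), also with scramble, were replated on day 2 without doxycycline in a medium with serum replacement and taken on day 4. EpiLCs + PRDM14 were scramble cells replated on day 2 with doxycycline. KD EpiLCs (d2) and KD EpiLCs + PRDM14 were labelled *Tet1*/*Tet2* knockdown (KD) and otherwise treated as their scramble counterparts.

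Imprinted genes carry a methylation mark that was set in the egg or the sperm and that survives the wave of demethylation after fertilization. The mark lies at an imprinting control region, and through it whole clusters of neighbouring genes are read from a single parental chromosome. Many of the proteins restrain or promote fetal and placental growth. In cultured pluripotent cells the levels of imprinted transcripts are known to shift with culture conditions and cell state.

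Probe sets were named through the platform annotation, and promoter windows of 300 bases (250 before the start of transcription and 50 after it) were taken from RefSeq on build GRCm38.p6. Windows were found for 25 of the 30 measured genes, 39 windows in all. The median member window held 16 CpG dinucleotides, against 7 for all 32851 windows of 27025 genes, and its median GC content was 58.3% against 52.7%. The letters TGCCGC, the core bound by ZFP57, a zinc-finger protein that keeps imprints, were searched on both strands. They occurred in 10 of the 39 member windows (25.6%), each of a different gene, and in 11.6% of all windows. This is a match of letters in a window, not a binding site. The windows of 5 genes whose levels carry the results are shown with every CpG in capitals. *Meg3*, *Peg3* and *Ndn* were among those higher at day 4, and *Phlda2* and *Plagl1* had the widest differences between ESCs and EpiLCs.
Meg3, + strand, chr12:109540746-109541045: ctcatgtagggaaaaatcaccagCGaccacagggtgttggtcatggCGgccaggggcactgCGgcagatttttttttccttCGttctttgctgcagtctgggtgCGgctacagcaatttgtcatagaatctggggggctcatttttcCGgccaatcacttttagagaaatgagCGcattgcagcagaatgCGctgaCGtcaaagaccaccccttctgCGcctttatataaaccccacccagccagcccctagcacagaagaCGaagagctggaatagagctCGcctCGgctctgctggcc
Peg3, - strand, chr7:6730370-6730669: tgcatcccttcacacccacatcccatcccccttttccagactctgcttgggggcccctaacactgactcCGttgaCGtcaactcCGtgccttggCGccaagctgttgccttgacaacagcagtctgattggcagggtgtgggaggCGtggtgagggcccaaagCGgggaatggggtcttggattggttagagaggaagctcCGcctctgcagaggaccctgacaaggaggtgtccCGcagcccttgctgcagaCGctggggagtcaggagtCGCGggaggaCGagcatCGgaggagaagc
Ndn, + strand, chr7:62348027-62348326: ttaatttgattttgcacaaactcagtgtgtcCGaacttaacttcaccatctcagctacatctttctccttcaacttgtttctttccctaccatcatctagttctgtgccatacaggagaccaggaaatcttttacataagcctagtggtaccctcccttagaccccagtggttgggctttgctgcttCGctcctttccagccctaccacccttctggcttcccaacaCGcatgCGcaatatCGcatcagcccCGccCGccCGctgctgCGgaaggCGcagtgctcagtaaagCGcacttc
Phlda2, - strand, chr7:143502475-143502774: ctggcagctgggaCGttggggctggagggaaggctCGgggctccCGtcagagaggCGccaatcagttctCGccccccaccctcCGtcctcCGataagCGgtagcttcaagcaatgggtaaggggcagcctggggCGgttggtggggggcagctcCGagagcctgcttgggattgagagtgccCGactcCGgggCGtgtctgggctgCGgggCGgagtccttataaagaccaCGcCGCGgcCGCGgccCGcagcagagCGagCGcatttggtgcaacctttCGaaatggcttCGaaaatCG
Plagl1, + strand, chr10:13090582-13090881: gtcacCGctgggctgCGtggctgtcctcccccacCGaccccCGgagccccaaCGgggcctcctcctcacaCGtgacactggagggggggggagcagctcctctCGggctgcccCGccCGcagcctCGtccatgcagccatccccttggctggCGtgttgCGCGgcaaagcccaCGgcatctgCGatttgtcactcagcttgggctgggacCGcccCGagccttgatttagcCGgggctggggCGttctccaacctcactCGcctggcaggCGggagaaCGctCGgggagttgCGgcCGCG
The windows of *Phlda2* and *Plagl1* held 26 CpG each, those of *Meg3* and *Peg3* 13 each and that of *Ndn* 11. *Meg3* has a second window, downstream of the one shown, with 1 CpG and no match. The letters TGCCGC were present in the shown windows of *Meg3* and *Plagl1* and not in the other 3. The *Peg3* window overlaps that of *Usp29*, which starts on the opposite strand, by 263 bases.

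Levels are log2 signals minus the median of all probe sets on the same array, so 0 is the median probe set and a difference of 1 is 2-fold. The deposited medians were 5.07 on both arrays labelled KD and 5.28 to 5.29 on the other 4. The subtraction removes this offset of the median only. Other differences between the arrays labelled KD and the others would remain, and they cannot be told apart from the knockdown. A gene counted as higher or lower when the log2 levels on 2 arrays were 1.5-fold or more apart (0.585 on the log2 scale). No p-value can be given with 1 array a condition, and differences between RNA preparations of the same condition are not known. In these bulk samples, fewer cells of a type and less RNA per cell cannot be told apart. All 9 naive markers measured were higher in ESCs than in EpiLCs (d2), among them *Klf4* (3.95) and *Nanog* (2.41), and 5 of 8 epiblast markers were lower, among them *Pou3f1* (-4.11) and *Otx2* (-1.71). With PRDM14, 8 of 9 naive markers were higher and 6 of 8 epiblast markers were lower than in EpiLCs (d2). The ninth naive marker was *Prdm14*, whose probe set read 1.67 in ESCs and -0.34 in EpiLCs + PRDM14, against -0.24 in EpiLCs (d2). Whether the cassette transcript holds that probe set was not examined. *Tet2* read 3.25 in EpiLCs (d2) and 3.43 in the array labelled KD at day 2, then 3.23 and 2.69 with PRDM14, so the knockdown is taken from the labels. Apart from the arrays, the paper describes qRT-PCR and western blot assays of the knockdown and of PRDM14 in the picked colonies. *Tet1* was not analysed here.

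Of the 30 imprinted genes, 11 passed 1.5-fold in at least 1 of the 7 comparisons and 19 passed it in none. The 7 comparisons share arrays, and EpiLCs (d2) enters 4 of them. The 11 genes were *Plagl1*, *Igf2*, *Peg3*, *Ndn* and *Sgce*, reported as paternally expressed, and *Phlda2*, *Cdkn1c*, *Meg3*, *Grb10*, *Ppp1r9a* and *Ube3a*, reported as maternally expressed.

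**Figure D1:**
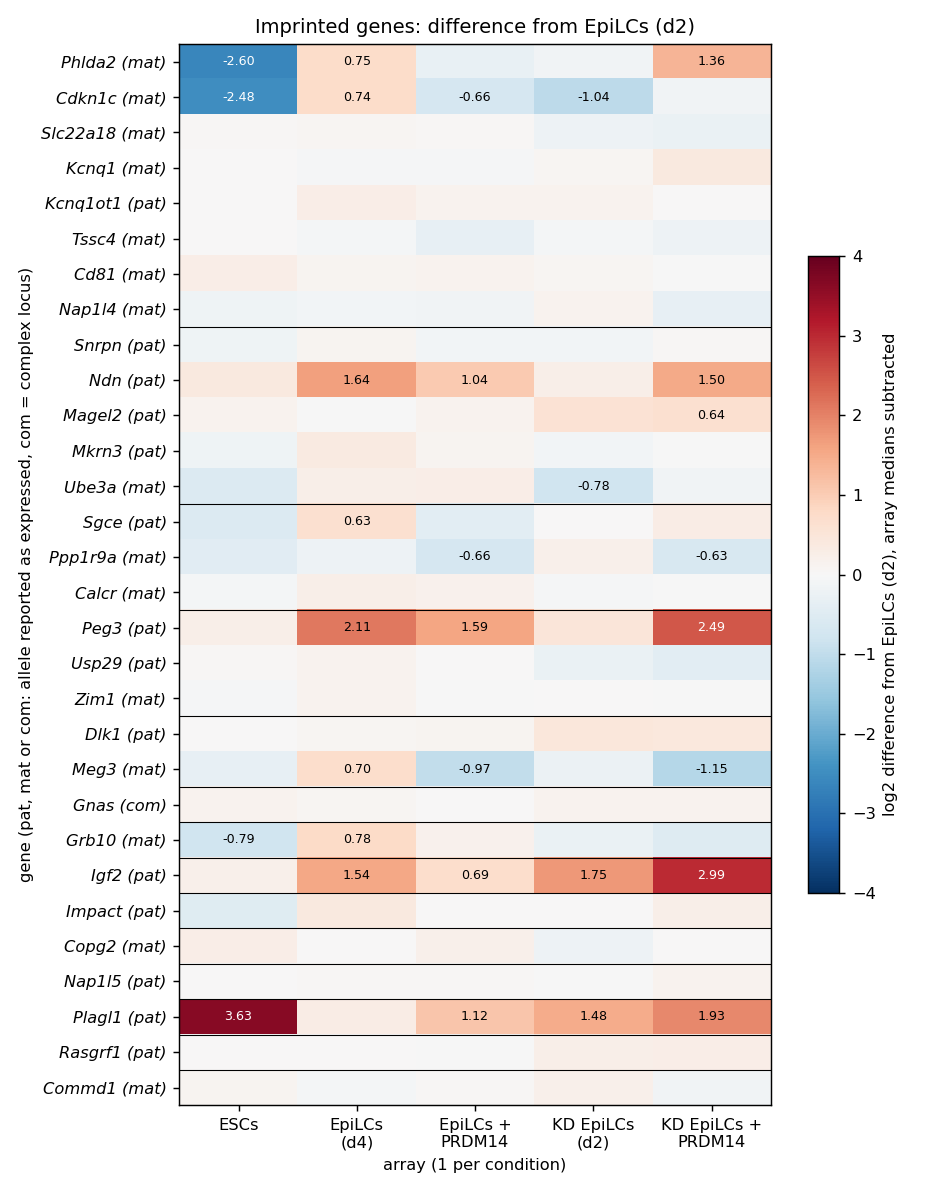
Colour gives the log2 difference of each array from EpiLCs (d2) for the 30 imprinted genes (rows, grouped by chromosomal domain, with the allele reported as expressed), after array medians were subtracted. Numbers are printed where the difference reached 1.5-fold. The widest are *Plagl1* in ESCs (3.63) and *Igf2* in KD EpiLCs + PRDM14 (2.99), and the EpiLCs (d4) column holds 8 printed values, all above 0.

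ESCs and EpiLCs (d2) were compared first, to see which imprinted transcripts differ between the naive state and the epiblast-like state. Of the 30 genes 1 was higher in ESCs and 3 were lower, where 2.64% of all genes were higher and 2.35% were lower. The single gene higher in ESCs was *Plagl1*, which encodes a zinc-finger transcription factor that restrains the cell cycle. *Plagl1* read 4.67 in ESCs, then 1.04 at d2, 1.32 at d4 and 2.16 with PRDM14 in scramble EpiLCs, and 2.52 at d2 and 2.97 with PRDM14 in those labelled KD. ESCs stood 3.63 above EpiLCs (d2), a 12.4-fold difference, and the scramble EpiLCs without PRDM14 were the 2 lowest arrays. The second *Plagl1* probe set lay below the array median throughout, from -0.82 to -0.45, and its difference between ESCs and EpiLCs (d2) was 0.27. The brighter probe set carries the manufacturer's x suffix, given where some probes also match other sequences.

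The maternally expressed *Phlda2* and *Cdkn1c* are neighbours in the *Kcnq1* domain on distal chromosome 7, and both restrain growth, the first in the placenta and the second as an inhibitor of cyclin-dependent kinases. *Phlda2* read 1.78 in ESCs, then 4.38 at d2, 5.13 at d4 and 4.08 with PRDM14 in scramble EpiLCs, and 4.25 at d2 and 5.74 with PRDM14 in those labelled KD. *Cdkn1c* read -0.17, 2.31, 3.05, 1.65, 1.27 and 2.18 on the same arrays in that order. For both genes ESCs were the lowest of the 6 arrays, by -2.60 (6.07-fold) for *Phlda2* and by -2.48 (5.59-fold) for *Cdkn1c* against EpiLCs (d2). *Grb10*, an adaptor that dampens insulin and growth factor signalling, was also lower in ESCs, by -0.79, with 2.04 in ESCs and 2.84 in EpiLCs (d2). The other 2 *Grb10* probe sets differed by -0.04 and -0.05 between these arrays.

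The other 6 measured genes of the *Kcnq1* domain passed in none of the 7 comparisons. *Kcnq1ot1*, the long noncoding RNA whose transcription silences the domain on the paternal chromosome, read between 1.35 and 1.63 on all 6 arrays at its brightest probe set. Of its 6 probe sets, 1 reached 1.5-fold in 1 comparison, 0.65 higher in EpiLCs (d4) than in EpiLCs (d2). *Kcnq1*, a potassium channel gene, read from -0.05 to 0.42, *Slc22a18*, a membrane transporter gene, from 1.53 to 1.86, *Tssc4* from 1.17 to 1.498, the tetraspanin gene *Cd81* from 3.77 to 4.06, and *Nap1l4*, which encodes a nucleosome assembly protein, from 3.24 to 3.71.

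Against EpiLCs (d4) instead of EpiLCs (d2), the count for ESCs was 11 of 30, with *Plagl1* higher, where 3.37% of all genes were, and 10 genes lower, where 4.19% were. The 10 were *Phlda2* (-3.35), *Cdkn1c* (-3.22), *Peg3* (-1.88), *Grb10* (-1.57), *Igf2* (-1.32), *Ndn* (-1.24), *Sgce* (-1.18), *Meg3* (-1.04), *Impact* (-0.90) and *Ube3a* (-0.78). *Impact*, whose product regulates translation under amino acid shortage, did not reach 1.5-fold in the 7 comparisons above and read from 4.41 in ESCs to 5.31 in EpiLCs (d4).

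The 2 further days of culture without PRDM14 were examined by EpiLCs (d4) minus EpiLCs (d2). Imprinted genes of both parental kinds were higher at day 4, 8 of the 30 (26.7%), where 2.18% of all genes were higher. None was lower, where 1.12% of all genes were. The median difference was 0.14 over the 30 genes and -0.01 over all genes. The 8 were the paternally expressed *Peg3*, *Ndn*, *Igf2* and *Sgce* and the maternally expressed *Grb10*, *Phlda2*, *Cdkn1c* and *Meg3*.

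**Figure D2:**
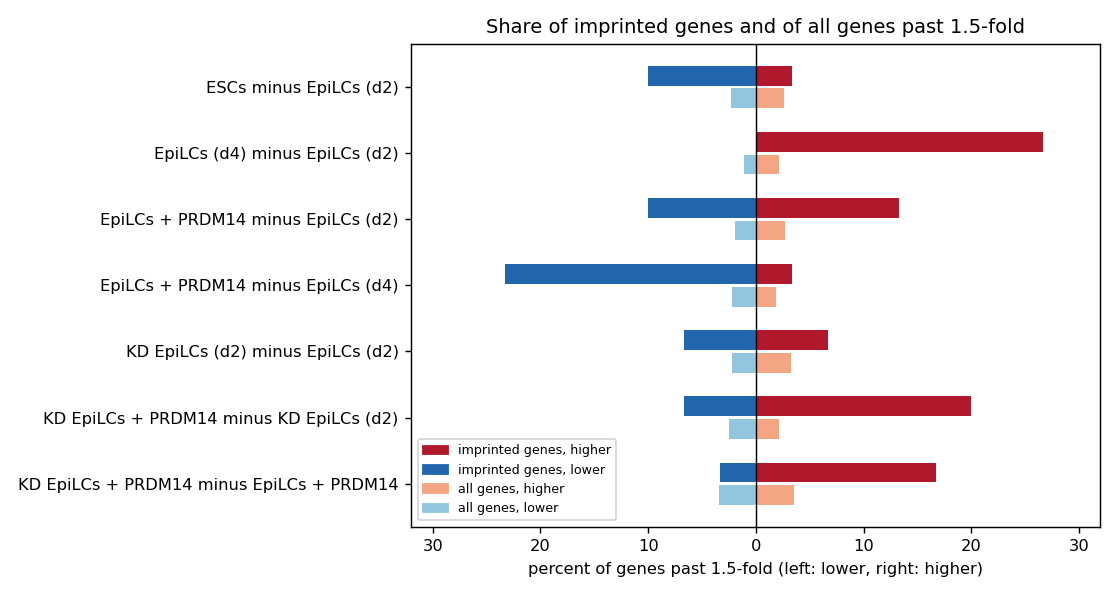
Bars give the percentage of the 30 imprinted genes (dark) and of all 17097 genes (light) that differed by at least 1.5-fold in each of the 7 comparisons, higher to the right and lower to the left of 0. The longest bars are the 26.7% of imprinted genes higher in EpiLCs (d4) than in EpiLCs (d2) and the 23.3% lower in EpiLCs + PRDM14 than in EpiLCs (d4), which share the array of EpiLCs (d4).

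*Peg3*, a zinc-finger gene expressed from the paternal allele, had the widest difference at day 4. *Peg3* read 0.98 in ESCs, then 0.75 at d2, 2.86 at d4 and 2.35 with PRDM14 in scramble EpiLCs, and 1.23 at d2 and 3.24 with PRDM14 in those labelled KD. The 3 arrays taken after replating were all above the 3 others, and EpiLCs (d4) exceeded EpiLCs (d2) by 2.11, or 4.31-fold. The second *Peg3* probe set went the same way, by 0.83. *Usp29*, a ubiquitin peptidase gene read from the overlapping *Peg3* window in the opposite direction, read from 0.16 to 0.73 and passed in no comparison. *Zim1*, a zinc-finger gene of the same domain, stayed below the array median, from -0.61 to -0.40.

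*Ndn* encodes necdin, a MAGE-family protein of the *Snrpn*-*Ube3a* domain. *Ndn* read 0.52 in ESCs, then 0.12 at d2, 1.76 at d4 and 1.16 with PRDM14 in scramble EpiLCs, and 0.36 at d2 and 1.62 with PRDM14 in those labelled KD. As for *Peg3*, the 3 arrays after replating lay above the 3 others, and the day 4 difference was 1.64. Its neighbours *Magel2*, another MAGE-family gene (1.28 to 1.95), *Mkrn3*, a makorin RING-finger gene (-1.49 to -0.96), and *Snrpn*, a splicing protein gene (4.78 to 5.06), passed in none of the 7 comparisons. The maternally expressed *Ube3a*, a ubiquitin ligase gene of the same domain, differed by 0.25 at day 4.

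*Igf2*, the growth factor gene, read 0.62 in ESCs, then 0.40 at d2, 1.94 at d4 and 1.09 with PRDM14 in scramble EpiLCs, and 2.15 at d2 and 3.39 with PRDM14 in those labelled KD. EpiLCs (d4) stood 1.54 above EpiLCs (d2). The second *Igf2* probe set read from -0.95 to -0.76 and differed by -0.01 at day 4. *Sgce*, which encodes a sarcoglycan and is the neighbour of *Peg10*, read 0.35, 0.90, 1.53, 0.47, 0.91 and 1.19 on the 6 arrays in the same order, and was 0.63 higher at day 4 at 1 of its 2 probe sets.

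Among the maternally expressed genes the day 4 differences ran from 0.70 to 0.78. *Grb10* was higher by 0.78, *Phlda2* by 0.75, *Cdkn1c* by 0.74 and *Meg3* by 0.70. *Grb10* read 3.61 in EpiLCs (d4), 3.02 in EpiLCs + PRDM14, 2.56 in KD EpiLCs (d2) and 2.31 in KD EpiLCs + PRDM14, so EpiLCs (d4) were the highest of its 6 arrays. The *Grb10* difference at day 4 was seen at 1 of 3 probe sets and that of *Meg3* at 3 of 10.

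**Figure D3:**
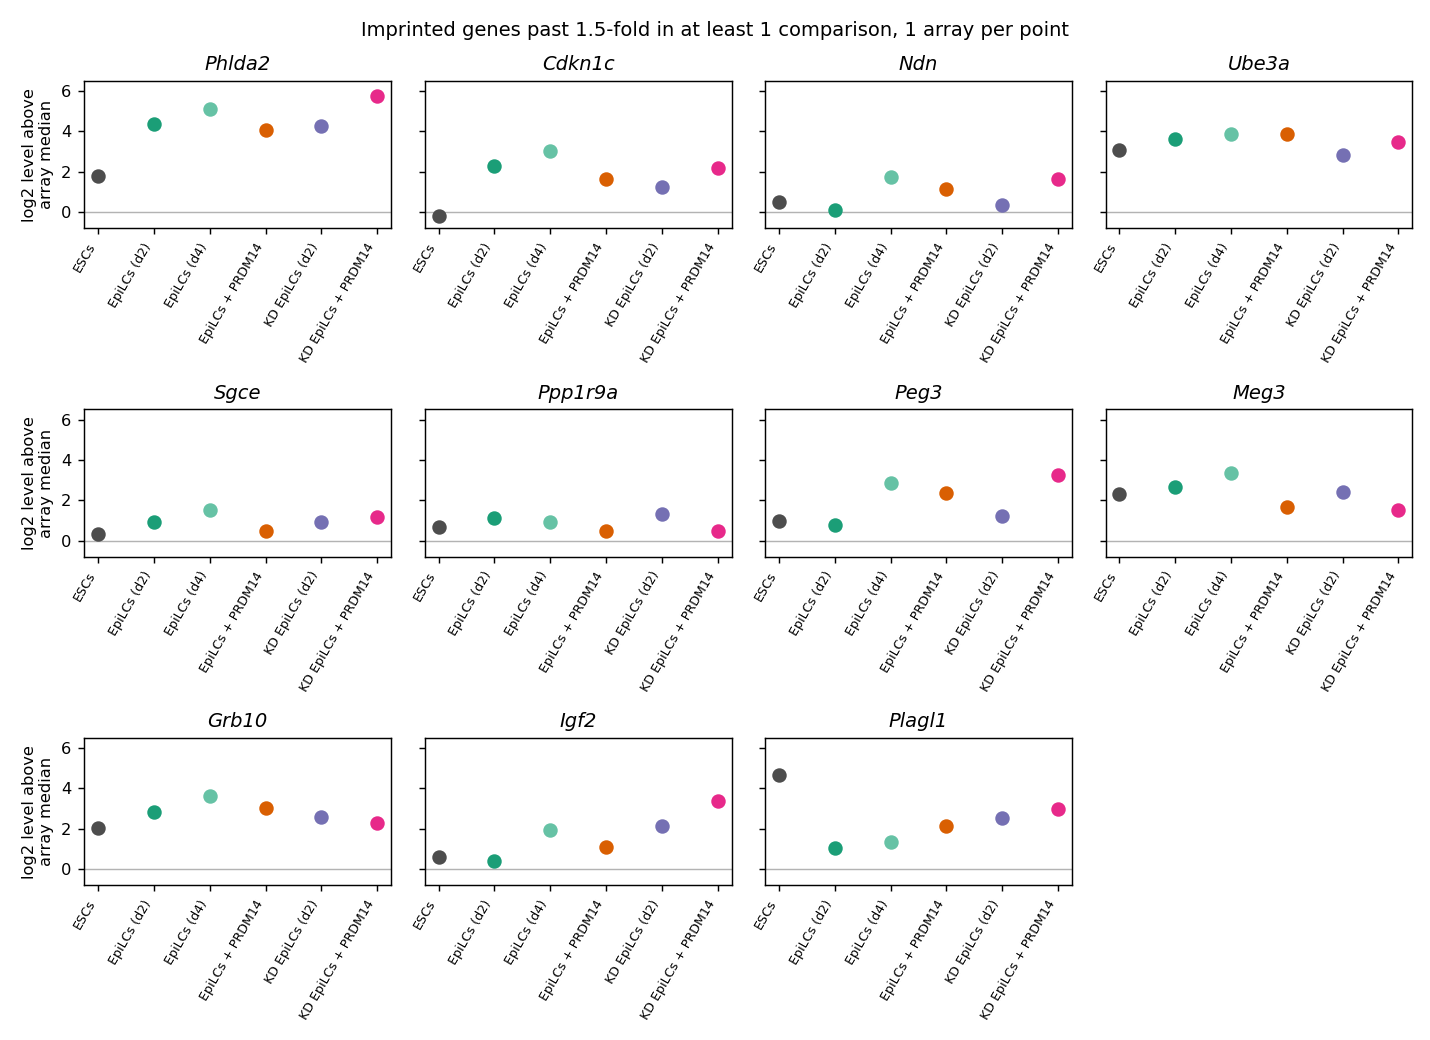
Each point is the level on 1 array, as log2 signal above the array median (grey line at 0), for the 11 imprinted genes that passed 1.5-fold in at least 1 comparison. ESCs are the lowest array for *Phlda2* and *Cdkn1c* and the highest for *Plagl1*, and *Peg3* and *Ndn* are higher on the 3 arrays taken after replating.

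Some markers listed for another cell type were also higher at day 4. Of 11 trophoblast markers measured, 5 were higher in EpiLCs (d4) than in EpiLCs (d2), namely *Krt8* (2.09), *Krt18* (1.40), *Tfap2c* (1.26), *Krt7* (1.19) and *Plac1* (0.93). The summed level of the 11 was 6.92 in EpiLCs (d2) and 13.5 in EpiLCs (d4). Summed levels add log2 values, so their ratio is not a fold change. The defining factors *Cdx2*, *Eomes*, *Elf5*, *Gata3* and *Hand1* differed by -0.17 to 0.01, and *Tpbpa* lay between -1.29 and -0.87 on all arrays. *Elf5* and *Gata3* lay below the array median on all 6 arrays. The part of these markers' change in the imprinted genes' levels was not tested. Of 10 primitive endoderm markers *Lamb1* (1.20) and *Dab2* (0.59) were higher and none was lower, and their summed level was 3.36 at day 2 and 5.07 at day 4. The neural marker *Tubb3* (0.9993) was higher, 1 of 6, and the fibroblast marker *Vim* (-1.16) was lower, 1 of 6, while none of 8 mesoderm markers passed. Some of these markers also set ESCs apart from EpiLCs (d2), *Tubb3* by 2.10, *Vim* by 0.97, *Dab2* by 0.91, *Krt18* by -0.71 and *Lamb1* by -1.67. Their part in the result was not tested either. Of 24 imprint maintenance genes measured, none passed in this comparison, where 2.18% of all genes were higher and 1.12% lower.

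EpiLCs + PRDM14 were compared with EpiLCs (d2), the pair the study used for the PRDM14 response. The pair also spans the replating and the time after day 2. In this pair the genes past the threshold and higher were those reported as paternally expressed, and those lower were reported as maternally expressed. *Peg3*, *Plagl1*, *Ndn* and *Igf2* were higher, 4 of 30 where 2.72% of all genes were, and *Meg3*, *Cdkn1c* and *Ppp1r9a* were lower, 3 of 30 where 1.91% of all genes were. The 4 higher genes differed by 1.59, 1.12, 1.04 and 0.69, and the 3 lower ones by -0.97, -0.66 and -0.66. They are 4 of the 14 paternally and 3 of the 15 maternally expressed genes, and the split by allele was not tested. It was not seen in KD EpiLCs + PRDM14 minus KD EpiLCs (d2). There the maternally expressed *Phlda2*, *Cdkn1c* and *Ube3a* were higher, and *Meg3* and *Ppp1r9a* were lower. Against EpiLCs (d4), the paternally expressed *Igf2*, *Ndn* and *Sgce* were lower with PRDM14, and *Plagl1* was higher. *Peg3*, *Ndn* and *Igf2* were also higher in EpiLCs (d4) without PRDM14, and by more. In the same pair 3 of 11 trophoblast markers were higher, *Tfap2c* (1.98), *Krt8* (0.70) and *Krt7* (0.68). The paper counts *Tfap2c* among germ cell precursor genes that PRDM14 activates. *Cdx2*, *Eomes*, *Elf5*, *Gata3* and *Hand1* differed by -0.13 to 0.16. The neural marker *Tubb3* (2.31), 1 of 6, was higher, reading 2.76 in ESCs and 2.97 in EpiLCs + PRDM14. The primitive endoderm marker *Lamb1* (0.94), 1 of 10, was higher, and the fibroblast marker *Vim* (-1.09), 1 of 6, was lower. Their part in the result was not tested.

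*Ppp1r9a*, which encodes the actin-binding protein neurabin, read 0.68 in ESCs, then 1.12 at d2, 0.92 at d4 and 0.46 with PRDM14 in scramble EpiLCs, and 1.31 at d2 and 0.49 with PRDM14 in those labelled KD. Its 2 lowest arrays were those with PRDM14, and 2 of its 4 probe sets passed in EpiLCs + PRDM14 minus EpiLCs (d2). *Plagl1* moved toward its ESC level, but ESCs still read 2.51 above EpiLCs + PRDM14. *Phlda2* (-0.30) was under the threshold, and ESCs minus EpiLCs + PRDM14 was -2.30 for *Phlda2* and -1.82 for *Cdkn1c*.

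Set against EpiLCs (d4), which were replated on the same day, EpiLCs + PRDM14 had 7 imprinted genes lower (23.3%), where 2.17% of all genes were lower. A single gene was higher, where 1.86% of all genes were. The 7 were *Meg3* (-1.67), *Cdkn1c* (-1.40), *Sgce* (-1.06), *Phlda2* (-1.05), *Igf2* (-0.85), *Ndn* (-0.60) and *Grb10* (-0.59), and the higher gene was *Plagl1* (0.84). All 7 belong to the 8 genes that were higher at day 4, and the eighth, *Peg3*, was lower by -0.51, under the threshold. The pair of comparisons shares the array of EpiLCs (d4), so a high value on that array would enter both. The median difference was -0.12 over the 30 genes and 0.00 over all genes. Of the 11 trophoblast markers 3 were lower in the same comparison, *Krt8* (-1.39), *Krt18* (-1.22) and *Plac1* (-0.59), and *Tfap2c* was higher (0.73). The summed level of the 11 was 10.7 with PRDM14. *Tubb3* (1.31), 1 of 6 neural markers, was higher, and no primitive endoderm, mesoderm or fibroblast marker passed. The part of these markers in the result was not tested.

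The *Meg3* difference was the lowest of the 30 in that comparison, and its domain, *Dlk1*-*Meg3* on chromosome 12, was examined gene by gene. *Meg3*, a maternally expressed long noncoding RNA, read 2.30 in ESCs, then 2.64 at d2, 3.34 at d4 and 1.67 with PRDM14 in scramble EpiLCs, and 2.42 at d2 and 1.49 with PRDM14 in those labelled KD. The arrays with PRDM14 were the 2 lowest, below ESCs too. The second brightest *Meg3* probe set read 2.03, 2.71, 3.69, 0.52, 2.33 and 0.71 on the 6 arrays in the same order, and its difference between EpiLCs + PRDM14 and EpiLCs (d4) was -3.17. Of the 10 *Meg3* probe sets, 4 were lower with PRDM14 than in EpiLCs (d2), and the differences over all 10 ran from -2.21 to 0.07.

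*Rian* and *Mirg*, noncoding RNAs that host small nucleolar RNAs and microRNAs and are read in the same direction as *Meg3*, were not among the 38 genes and belong to the list of other imprinted genes. *Rian* read 3.13 in ESCs, then 3.41 at d2, 5.004 at d4 and 1.83 with PRDM14 in scramble EpiLCs, and 3.16 at d2 and 1.91 with PRDM14 in those labelled KD. *Mirg* read 0.48, 0.83, 1.65, 0.05, 0.97 and 0.47 on the same arrays. Both were highest in EpiLCs (d4), and both were lower in EpiLCs + PRDM14 than in EpiLCs (d2), by -1.58 and -0.78. *Dlk1*, the paternally expressed coding gene of the domain, whose product resembles Notch ligands, read from -0.07 to 0.40 and passed in no comparison.

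**Figure D4:**
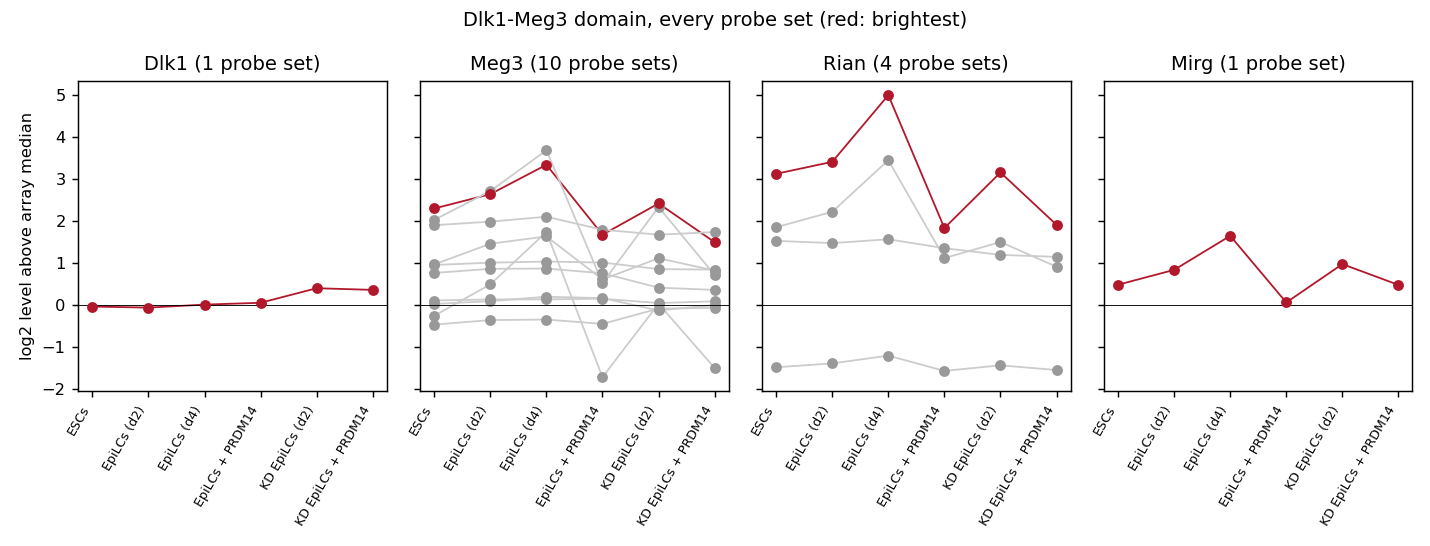
Lines give the level of every single-symbol probe set of *Dlk1*, *Meg3*, *Rian* and *Mirg* on the 6 arrays, as log2 signal above the array median, with the brightest probe set of each gene in red. Several *Meg3* and *Rian* probe sets and the *Mirg* probe set peak in EpiLCs (d4) and drop on both arrays with PRDM14, others are flat, and *Dlk1* stays between -0.07 and 0.40.

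Of 24 measured genes that write, keep or remove imprints, 8 passed 1.5-fold in EpiLCs + PRDM14 minus EpiLCs (d2). Of all genes 2.72% were higher and 1.91% lower in that pair. *Dnmt3a*, *Dnmt3b* and *Zfp42* of these are also among the epiblast or naive markers counted above. In all 5 were lower in EpiLCs + PRDM14 than in EpiLCs (d2), the DNA methyltransferase genes *Dnmt3b* (-2.10) and *Dnmt3a* (-0.79), their cofactor *Dnmt3l* (-1.02), *Uhrf1* (-0.66), which guides maintenance methylation, and the glycosylase gene *Tdg* (-0.59). *Dppa3*, which protects imprints in the zygote, was higher by 1.91, the naive marker *Zfp42* by 1.31 and the heterochromatin protein gene *Cbx5* by 0.77. The other *Cbx5* probe sets differed by 0.04 to 0.40. *Dnmt1*, the maintenance methyltransferase gene, differed by -0.04, and *Trim28*, the ZFP57 partner, by 0.02. Against EpiLCs (d4), *Dppa3* (1.56) and *Zfp42* (1.13) were higher with PRDM14, and *Dnmt3b* (-2.33), *Arid4b* (-0.73) and *Dnmt3l* (-0.67) were lower. Of all genes 1.86% were higher and 2.17% lower there. *Dnmt3a* (-0.39), *Uhrf1* (-0.33), *Tdg* (-0.47) and *Cbx5* (0.35) were under the threshold against EpiLCs (d4).

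The arrays labelled KD were set against their scramble counterparts. *Igf2* and *Plagl1* were higher in both pairs, 2 of 30 genes where 1.79% of all genes were, and no imprinted gene was lower in both, where 1.25% of all genes were. *Igf2* was 1.75 higher at day 2 and 2.30 higher with PRDM14, where the difference was 4.93-fold. The 2 arrays labelled KD were its highest. *Plagl1* was higher by 1.481 and 0.81. The second probe sets, both below the array median, differed by 0.05 and 0.14 for *Igf2* and by 0.08 and 0.31 for *Plagl1*, and with the mean of all probe sets *Plagl1* was 0.56 higher with PRDM14, under the threshold. Of the 9 naive markers 4 were also higher in the array labelled KD at day 2, *Nr0b1* (1.39), *Nanog* (1.07), *Klf4* (1.06) and *Tfcp2l1* (0.70), and 2 were with PRDM14. Past 1.5-fold in both pairs were *Klf4* of the naive markers and *Krt8* and *Krt18* of the 11 trophoblast markers, the latter by 1.44 and 1.10 at day 2. The summed trophoblast level at day 2 was 9.65 in the array labelled KD and 6.92 with scramble. Of the other lists, *Tbx6* (0.63), 1 of 8 mesoderm markers, and *Thy1* (0.67), 1 of 6 fibroblast markers, were higher at day 2. Their part in the result was not tested. Outside the range of the other 4 arrays in both arrays labelled KD lay *Igf2*, *Dlk1*, *Kcnq1*, *Magel2* and *Rasgrf1* above it (16.7%) and *Usp29* and *Slc22a18* below it (6.67%). Over all genes these shares were 23.5% and 19.9%, so such a position was common on these arrays. The knockdown and any other difference between the arrays labelled KD and the other 4 cannot be told apart here. *Rasgrf1*, a guanine nucleotide exchange factor gene, read 0.44 and 0.48 there and 0.21 to 0.23 on the other arrays.

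At day 2, 2 genes were higher in the array labelled KD (3.30% of all genes) and 2 were lower (2.25% of all genes). The lower ones were *Cdkn1c* (-1.04) and *Ube3a* (-0.78). *Ube3a* read 3.09 in ESCs, then 3.63 at d2, 3.87 at d4 and 3.88 with PRDM14 in scramble EpiLCs, and 2.84 at d2 and 3.48 with PRDM14 in those labelled KD, and 2 of its 3 probe sets were lower at day 2. *Magel2* was 0.58 higher, just under the threshold.

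With PRDM14, 5 genes were higher in the array labelled KD than in the scramble array, where 3.58% of all genes were, and 1 was lower, where 3.38% were. Beside *Igf2* and *Plagl1* the higher genes were *Phlda2* (1.66), *Peg3* (0.90) and *Sgce* (0.71), and the lower gene was *Grb10* (-0.71). Some trophoblast markers were higher here too, *Krt18* (2.26), *Krt8* (1.85), *Krt7* (1.15), *Plac1* (0.99) and *Tfap2c* (0.72). The summed level of all 11 was 10.7 in EpiLCs + PRDM14 and 18.95 in KD EpiLCs + PRDM14, the highest of the 6 arrays. The other 6 were under the threshold, with *Tpbpa* at 0.42, *Hand1* at 0.38, *Gata3* at 0.31, *Eomes* at 0.13, *Cdx2* at 0.04 and *Elf5* at -0.04. Of 6 fibroblast markers *Vim* (1.38) was higher and *Col3a1* (-0.72) was lower. *Dab2* (0.76), 1 of 10 primitive endoderm markers, and *Meox1* (0.60), 1 of 8 mesoderm markers, were higher. Their part in the result was not tested.

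Within the arrays labelled KD, KD EpiLCs + PRDM14 were set against KD EpiLCs (d2), a pair that shares no array with the scramble pair. No day 4 array labelled KD was analysed here, so PRDM14 and the time after replating cannot be told apart in this pair. Of the 30 genes 6 were higher, where 2.12% of all genes were, and 2 were lower, where 2.53% were. *Peg3* (2.02), *Phlda2* (1.49), *Ndn* (1.27), *Igf2* (1.25), *Cdkn1c* (0.91) and *Ube3a* (0.64) were higher, and *Meg3* (-0.92) and *Ppp1r9a* (-0.82) were lower. Of the genes with several probe sets, *Peg3* passed at 2 of 2, *Igf2* at 1 of 2, *Ube3a* at 1 of 3, *Meg3* at 3 of 10 and *Ppp1r9a* at 2 of 4. Over all 11 trophoblast markers 5 were higher in this pair, and the summed level went from 9.65 to 18.95. *Tubb3* (1.27), 1 of 6 neural markers, and *Dab2* (0.84) and *Lamb1* (0.67), 2 of 10 primitive endoderm markers, were higher too. The part of these markers was not tested.

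In the same direction in both pairs were *Peg3*, *Ndn*, *Igf2*, *Meg3* and *Ppp1r9a*, which is 71.4% of the 7 genes past 1.5-fold with scramble and 62.5% of the 8 in the pair labelled KD. For *Peg3*, *Ndn* and *Igf2* the shared direction is also that of EpiLCs (d4) without PRDM14, and with scramble all 3 read lower with PRDM14 than in EpiLCs (d4). *Meg3* was higher at day 4 (0.70), and *Ppp1r9a* differed by -0.20. Over all genes 396 passed in the same direction, which is 2.32% of all genes measured. As shares of the genes past 1.5-fold, they are 396 of 792 with scramble and 49.7% of the 796 in the pair labelled KD. Whether the shares of the imprinted genes differ from these was not tested. *Cdkn1c* passed in opposite directions, with -0.66 for scramble and 0.91 in the pair labelled KD, as did 9 of all genes (0.0526%). *Phlda2* differed by -0.30 and 1.49. No response of 1 array pair has an error of its own, so these differences between the pairs were not tested.

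**Figure D5:**
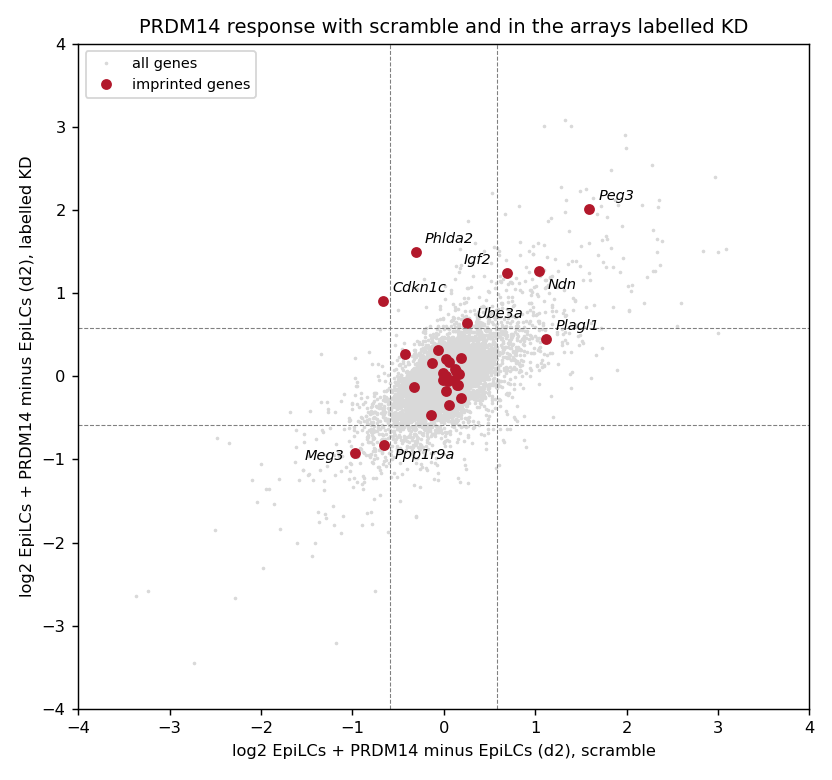
Points give the log2 difference between EpiLCs + PRDM14 and EpiLCs (d2) for scramble (x axis) and for the arrays labelled KD (y axis), for all genes (grey) and the 30 imprinted genes (red), and dashed lines mark 1.5-fold. Both differences also span the time after day 2. *Peg3*, *Ndn* and *Igf2* lie high in both pairs, *Meg3* and *Ppp1r9a* low in both, and *Cdkn1c* lies at -0.66 and 0.91.

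Most of the 19 genes that passed in no comparison have been described with their domains. The remaining 5 were *Commd1*, a gene of copper handling (3.38 to 3.73), *Copg2*, which encodes a coatomer subunit (1.51 to 1.97), *Nap1l5*, a nucleosome assembly protein gene (-0.10 to 0.07), *Calcr*, the calcitonin receptor gene (-0.61 to -0.29), and *Gnas*, the stimulatory G protein alpha subunit gene (-1.28 to -1.13). Across the 19 the range over the 6 arrays ran from 0.15 to 0.90. For 5 of the 30 genes the mean level lay below the array median, so their probe sets read little signal. Of the 19, 8 had a mean below 0.5, and these include *Dlk1* (0.12), *Kcnq1* (0.08) and *Rasgrf1* (0.30). Which *Gnas* transcripts its probe set reads was not examined.

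Of 46 other imprinted genes 34 were measured, and they were counted in the same way. The shares of all genes higher and lower were 2.64% and 2.35% in ESCs against EpiLCs (d2) and 2.18% and 1.12% at day 4. With PRDM14 against EpiLCs (d4) these shares were 1.86% and 2.17%, and in the PRDM14 pair labelled KD 2.12% and 2.53%. For both pairs of KD and scramble arrays they were 1.79% and 1.25%. In ESCs against EpiLCs (d2), *Qpct* (1.60) was higher, and *Pon2* (-1.75), *Sfmbt2* (-1.55), *Atp10a* (-0.87), *Dhcr7* (-0.71) and *Snurf* (-0.59) were lower. At day 4, 4 were higher, *Rian* (1.59), *Sfmbt2* (1.14), *Ascl2* (1.02) and *Mirg* (0.81), and 2 were lower, *Rhox5* (-1.24) and *Ddc* (-1.02). *Ascl2* and *Sfmbt2* act in the trophoblast lineage. In EpiLCs + PRDM14 none was higher and 5 were lower than in EpiLCs (d4), *Rian* (-3.17), *Mirg* (-1.59), *Sfmbt2* (-0.97), *Ascl2* (-0.90) and *Snurf* (-0.81). Within the arrays labelled KD, 3 were higher and 3 were lower with PRDM14, with *Sfmbt2* (1.25) and *Rian* (-1.25) at the ends. *Atp10a* and *Trpm5* were lower in both arrays labelled KD than in their scramble counterparts, by -0.64 and -0.63 at day 2 and by -0.87 and -0.86 with PRDM14. Their other probe sets differed at day 2 by -0.64, -0.21 and 0.31 for *Atp10a* and by -0.35 and 0.09 for *Trpm5*.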

How the data were processed

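RNA of 6 cultures was hybridized to Affymetrix mouse arrays, 1 array per condition, and groups follow the labels. The authors deposited log2 signals, summarized by RMA (robust multi-array average) with the defaults of the Affymetrix Expression Console, version not given in the sources used here. Array medians differ between the arrays labelled KD and the others, so every array's median over 45037 probe sets was subtracted (104 control probe sets left out). Genes were named through the platform annotation (1 symbol for 28898 probe sets, several for 551, none for 15588), and each gene was read at its brightest probe set. A call needed 1.5-fold between 2 arrays. There is no test, and precision is limited by having 1 array each. Every measured member is named. The rule also named cell type markers past 2-fold, and up to 6 members past 1.5-fold of the other imprinted and of the imprint maintenance genes in each comparison, and some of these are given as counts or left out. Markers between 1.5-fold and 2-fold, *Dnmt1*, *Trim28* and the flat trophoblast genes were named after their values were seen. The members and lists were chosen with earlier results of these data known. Alternatives were the threshold, the probe set rule, a filter on dim probe sets, no median subtraction, quantile normalization and EpiLCs (d4) as reference. Choosing the brightest probe set over the 4 arrays not labelled KD, and each gene's difference from EpiLCs (d4), were added after seeing the data. Calls were tested on simulated data. Python 3.11.15, pandas 2.3.3, numpy 2.4.6 and matplotlib 3.10.9 were used.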

Additional observations from a re-analysis of the deposited data

Results flagged for a closer look

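*Cdkn1c* went in opposite directions from day 2 to the arrays with PRDM14 in the 2 array pairs. Its difference was -0.66 with scramble and 0.91 in the pair labelled KD, which are 1.57 apart, and with 1 array per condition the difference between the pairs was not tested.

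Among 8 probe sets that carry a member's symbol together with another gene's, which enter none of the comparisons above, 1 passed 1.5-fold. It is a probe set of *Snurf* and *Snrpn*, which read 4.66 at d2 and 4.95 at d4 in scramble EpiLCs and 4.27 with PRDM14, so that EpiLCs + PRDM14 minus EpiLCs (d4) was -0.68.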

How the results depend on the processing

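No paired analysis was possible because each condition has 1 array. Of 45 member differences past 1.5-fold, all 45 kept their sign with the other normalizations, probe set rules and the filter. The number still past 1.5-fold was 44 with quantile normalization (*Grb10* fell out, -0.56 in EpiLCs + PRDM14 minus EpiLCs (d4)), 44 without median subtraction (*Sgce* fell out, 0.50 between the arrays with PRDM14), 29 with the mean of all probe sets, and 45 with the largest-range probe set, the filter on dim probe sets and the choice over 4 arrays. The dim filter could remove none of the 45, because the mean level of each gene concerned lay above the array median. The largest-range rule takes the probe set that differs most, and the 16 members with a single probe set cannot change under any probe set rule. At 2-fold, 3 members passed in EpiLCs (d4) minus EpiLCs (d2), where 0.948% of all genes did. The share of all genes is given in brackets below. In EpiLCs + PRDM14 minus EpiLCs (d2) 3 passed (1.52%), and in EpiLCs + PRDM14 minus EpiLCs (d4) 4 passed (1.22%). In KD EpiLCs + PRDM14 minus KD EpiLCs (d2) 4 passed (1.46%). The count was 2 in KD EpiLCs + PRDM14 minus EpiLCs + PRDM14 (1.13%), and 1 in both pairs of arrays labelled KD and scramble (0.328%). With the mean of all probe sets, those counts were 5 at day 4, 4 for EpiLCs + PRDM14 minus EpiLCs (d4), 5 for the PRDM14 response in the arrays labelled KD, 3 for KD against scramble with PRDM14, and 1 for both pairs. With EpiLCs (d4) as the reference, 11 members differed in ESCs (7.56%). EpiLCs + PRDM14 went from 4 higher and 3 lower (4.63%) to 1 higher and 7 lower (4.03%). There *Igf2* (0.69 to -0.85), *Ndn* (1.04 to -0.60) and *Peg3* (1.59 to -0.51) turned, so 8 of 11 differences past 1.5-fold from EpiLCs (d2) kept their sign. The other counts stayed within 1.5 times their value. With 1 array a condition, neither replicate spread nor array effects can be measured. Low signal limits at least the 5 members whose mean lay below the array median.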

Other observations

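The probe set shared by *Copg2* and *Mest*, the latter a paternally expressed gene that had no probe set of its own symbol, read 3.13 in ESCs, then 3.60 at d2, 3.91 at d4 and 3.58 with PRDM14 in scramble EpiLCs, and 3.76 at d2 and 3.66 with PRDM14 in those labelled KD. ESCs were the lowest and EpiLCs (d4) the highest of the 6 arrays, and none of the 7 comparisons reached 1.5-fold. The probe set shared by *Airn* and *Igf2r* lay below the array median on all 6 arrays, from -0.68 to -0.40.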
